A study of Mus musculus with 12 samples.

Results

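The clustered protocadherins are a family of cadherin-like cell surface proteins whose genes lie side by side in an alpha, a beta and a gamma cluster on mouse chromosome 18. Members were taken by name: every gene of the 2 deposited count tables whose symbol is Pcdha, Pcdhb, Pcdhga, Pcdhgb, Pcdhgc or Pcdhac followed by a number. This gave 55 names out of 32530 in either table, of which 13 belong to the alpha, 21 to the beta and 21 to the gamma cluster. The day 1 table holds all 55 and the day 14 table holds 51, since Pcdha2, Pcdha3, Pcdha4 and Pcdhac1 have a line at day 1 only. GENCODE M21 lists 57 such genes; the other two, Pcdhb1 and Pcdhga10, are not analysed here.

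In the alpha and gamma clusters each variable first exon has its own promoter and encodes a whole extracellular and membrane part, which is spliced to a few constant exons that all members of the cluster share. Beta genes are single-exon genes without constant exons. The proteins bind like proteins on neighbouring cells, and neurons are known for choosing sets of alpha, beta and gamma isoforms promoter by promoter, with the help of the insulator protein CTCF and cohesin and under the influence of DNA methylation. The C-type isoforms (Pcdhac1, Pcdhac2, Pcdhgc3, Pcdhgc4 and Pcdhgc5) lie at the ends of the alpha and gamma clusters and are regulated apart from the others. The family is best studied in the nervous system.

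The cells were primary vascular smooth muscle cells from mouse aorta, and the series asks how loss of the orphan nuclear receptor NR4A3 affects vascular calcification. RNA was sequenced from wild type (WT) cells and from cells labelled NR4A3KO (KO) at day 1 and at day 14, with 3 libraries in each of the 4 groups. Per the labels' protocols, cells of all groups were kept in DMEM/F12 medium with 10% fetal bovine serum and 10 mM beta-glycerophosphate (beta-GP), a phosphate donor used to drive mineral deposition. The treatment label differs from this: KO libraries carry beta-GP there and WT libraries none, so genotype and this label cannot be told apart. The labels do not give the part of Nr4a3 that was removed, the age of the mice, or whether the libraries of a group come from separate animals or cultures. P-values therefore rest on library-to-library spread, part or all of which may be technical. Each day has its own count table, so day and table cannot be told apart either.

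Library totals ran from 13848199 to 30105118 counts, of which 1094 to 3685 per library fell on clustered protocadherins. Nr4a3, the targeted gene, stood at 4.61, 4.28 and 3.84 CPM (counts scaled to a common library total with TMM factors) in WT and 1.89, 2 and 2.34 in KO at day 1, and at 238, 256 and 217 in WT and 34.3, 60 and 54.5 in KO at day 14. KO was lower on both days, by a log2 fold change of -1.02 ± 0.21 (SE; adjusted p = 0.000855) and -2.27 ± 0.19 (adjusted p = 2.6e-05), though reads remained. Over 15975 genes, the log2 profiles of KO day 1 and WT day 14 libraries correlated with each other at a median Pearson r of 0.974, against 0.921 to 0.936 between other groups and 0.975 to 0.994 within a group; this is a correlation across genes, which are not independent. Groups were taken as labelled: whether libraries were exchanged between groups or days was not tested, and the direction of each comparison below rests on the labels. Replicate 1 of WT day 14 differed most from its fellow libraries, and several results that rest on it are given without it as well. Of the smooth muscle markers, Acta2 averaged 276 to 1630 CPM and Des 480 to 812 CPM by group, while Tagln, Myh11 and Myocd averaged at most 0.573 CPM in any group, so several defining markers of contractile smooth muscle were at or near 0.

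Clustered protocadherin RNA came mostly from the gamma and beta clusters, and in both the mean was highest in KO day 14 and lowest in KO day 1. Gamma members together reached 56.2 ± 3.56 CPM (mean ± SD, n = 3) in WT day 1, 30.9 ± 3.06 in KO day 1, 39.9 ± 8.88 in WT day 14 and 103 ± 8.21 in KO day 14. For the beta cluster the summed levels were 48.4 ± 2.17, 32.8 ± 4.27, 42.9 ± 13.4 and 87.1 ± 5.79 CPM in the same order of groups. KO libraries lay below all WT libraries at day 1 and above them all at day 14, whereas the ranges of KO day 1 and WT day 14 overlapped in every cluster. That overlap came from WT day 14 replicate 1, at 27.5 CPM for beta, 29.9 for gamma and 0.999 for alpha. The other two WT day 14 libraries lay above all KO day 1 libraries in beta (49.8 and 51.4 CPM) and gamma (42.8 and 47 CPM), and below them in alpha (0.418 and 0.346 CPM). The beta ranges of WT day 1 and WT day 14 overlapped, and the log2 ratio of day 14 to day 1 turned from -0.17 to 0.07 without WT day 14 replicate 1. A sum over members chosen by name gets no test.

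**Figure D1:**
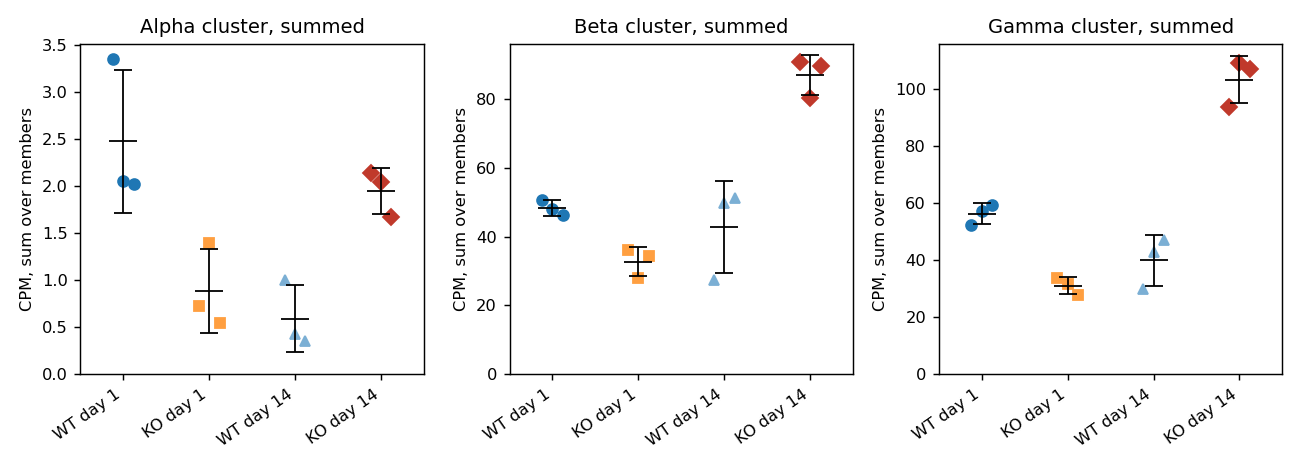
Summed level of each protocadherin cluster (y axis, CPM of the TMM-scaled library total) in the 4 groups, with 1 point per library and bars for the mean ± SD (n = 3). KO day 14 stands highest in the beta and gamma clusters (87.1 and 103 CPM), while the alpha cluster, on an axis of its own, reaches at most 3.35 CPM in a library.

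The alpha cluster was close to the detection limit, at 2.47 ± 0.76, 0.882 ± 0.449, 0.588 ± 0.358 and 1.95 ± 0.244 CPM, or 189, 49, 33 and 95 counts over the 3 libraries of each group. The names found at day 1 only held 26 of the 189 WT day 1 counts; over the 9 alpha names of both tables, WT day 1 stood at 2.12 ± 0.638 CPM. In all 3 clusters together, 54 of 55 names had at least 1 count in WT day 1 and 44 of 55 in KO day 1, and 46 of 51 had one in WT day 14 and 48 of 51 in KO day 14. These numbers of names depend on depth, and the WT day 1 libraries were the deepest. Their totals were 24929624 to 30105118 counts, against 17143281 to 20091307 in KO day 1. In bulk RNA, fewer cells with a transcript and less of it per cell cannot be told apart. How reads over exons shared between members were assigned is not given in the sources used here. In GENCODE M21, bases shared with any other member, constant exons included, make up 27.8% to 47.1% of the exon bases of gamma genes other than Pcdhgb1 (54.6%) and Pcdhga4 (66.8%), and 0% for beta genes other than Pcdhb21 and Pcdhb22 (9.7% and 6.9%). For alpha genes other than Pcdha11 (28.5%) the share is 48.6% to 54.9%.

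**Figure D2:**
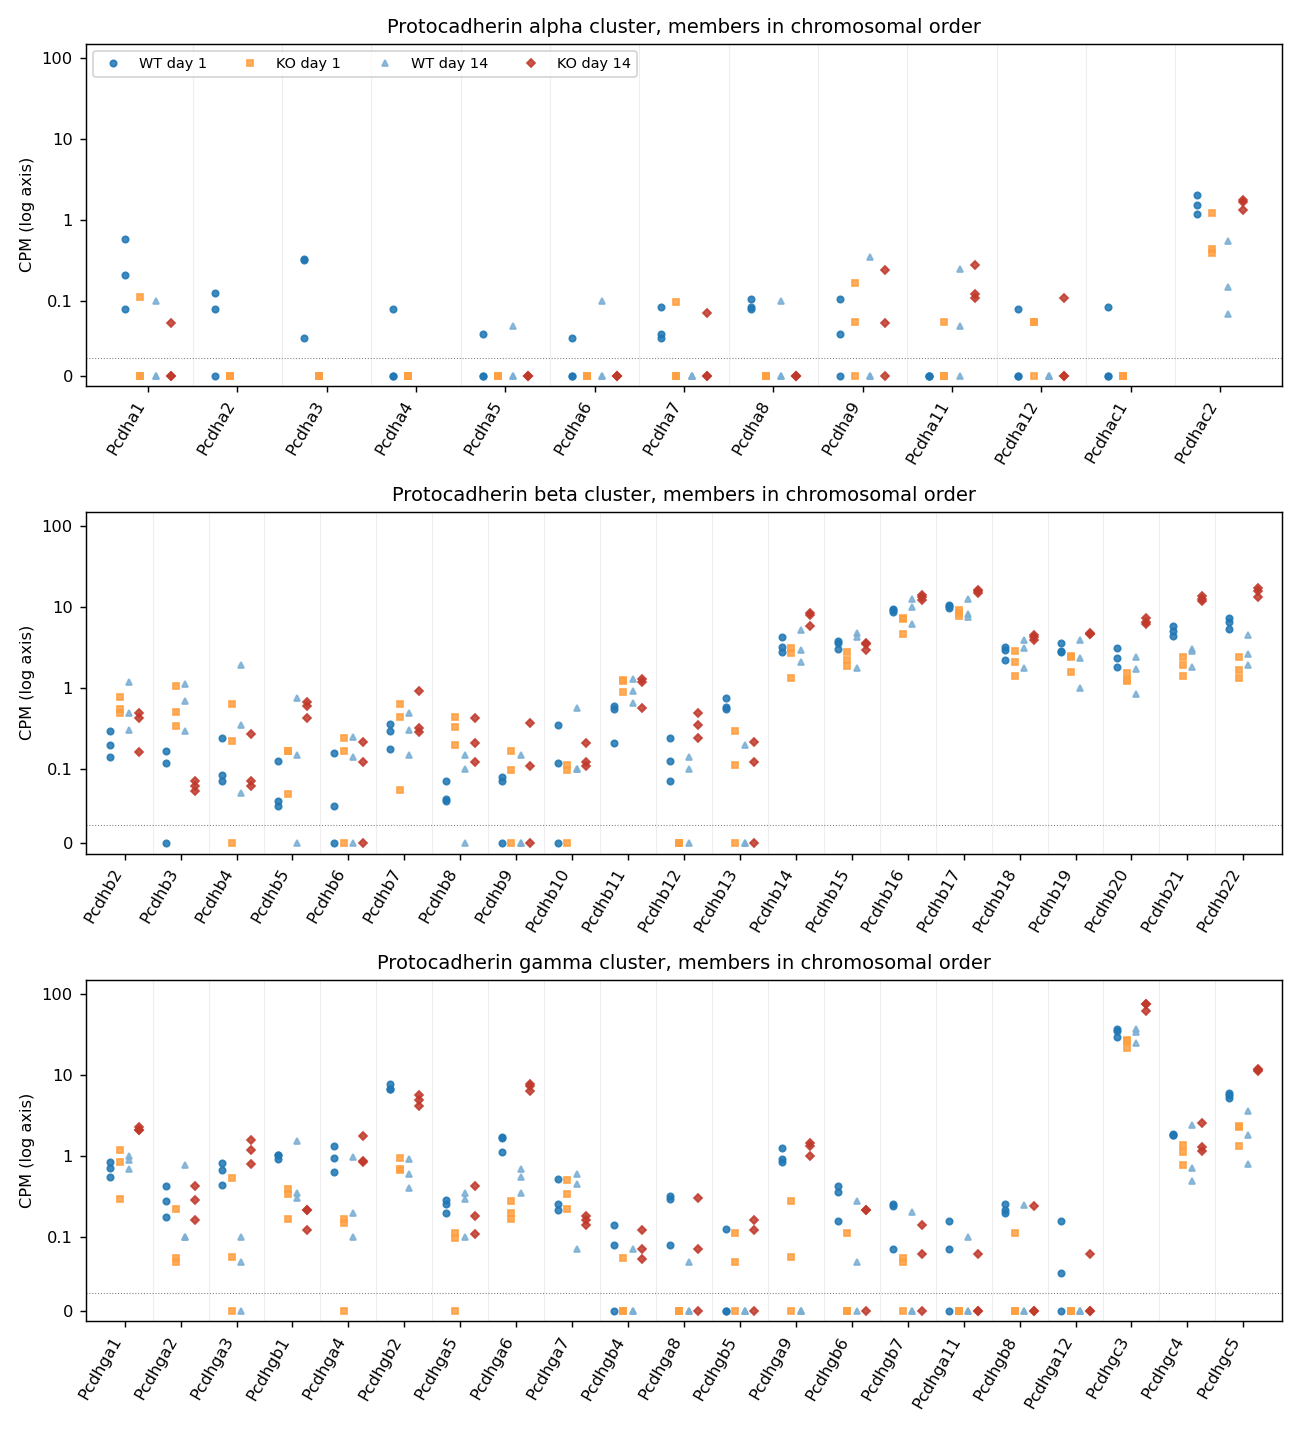
Level of every member (y axis, CPM on a log axis, with 0 drawn below the dotted line) in each of the 12 libraries, by cluster and in chromosomal order; colour and shape mark the group. Pcdhgc3, the C-type gene near the end of the gamma cluster, and Pcdhb14 to Pcdhb22, at the end of the beta cluster, hold most of the signal, while most alpha members lie at or near 0.

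The level per kilobase of exon put Pcdhgc3 first in all 4 groups, at 6.16 ± 0.684, 4.49 ± 0.555, 5.84 ± 1.16 and 12.8 ± 1.29 CPM per kb (WT day 1, KO day 1, WT day 14, KO day 14). Pcdhb17 came next on that scale, at 2.19 ± 0.112, 1.82 ± 0.169, 2.01 ± 0.573 and 3.37 ± 0.13 CPM per kb, and Pcdhb16 followed in all groups but KO day 14, where Pcdhb21 stood at 2.68 ± 0.192 and Pcdhb16 at 2.53 ± 0.164. In WT day 14 the values of Pcdhb17 and Pcdhb16 (1.84 ± 0.612) differed by less than their SD. With the same counts divided by the length of only the bases that no other member shares, Pcdhgc3 was again first in each group. The order below it changed in part. In WT day 1, Pcdhgb2 (2.55 ± 0.199) then stood above Pcdhb17 (2.19 ± 0.112). In KO day 14, Pcdhga6 (2.72 ± 0.265) stood above Pcdhb16 (2.53 ± 0.164), by less than the SD of Pcdhga6. The reads themselves were not limited to the unshared bases.

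At day 1, fewer clustered protocadherin transcripts were measured in KO than in WT for most members that could be tested. Among the 23 members past the filter on low counts, 14 fell and 2 rose, against a background of 60.8% of 15367 genes called in either direction, 30.6% higher and 30.2% lower. The median log2 fold change of the 23 was -0.84, against 0.01 over all genes tested. At day 14 the direction was the opposite: of 21 tested members 13 rose and none fell, against 46.4% of 14904 genes called, 22.7% higher and 23.7% lower. The median there was 1.28, against 0 over all genes. The KO and WT libraries did not overlap for 18 of 23 tested members at day 1, against 66.7% of all genes, and for 14 of 21 at day 14, against 58.1%. A member can pass the filter through the group in which it is high, so these are counts of the tested members and not of all 55. Without WT replicate 2, the day 1 count dropped from 16 to 10 (1 higher, 9 lower). By cluster, the fallen members at day 1 were 1 of 1 alpha, 6 of 12 beta and 7 of 10 gamma genes, and those that rose at day 14 were 1 of 1, 5 of 11 and 7 of 9.

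**Figure D3:**
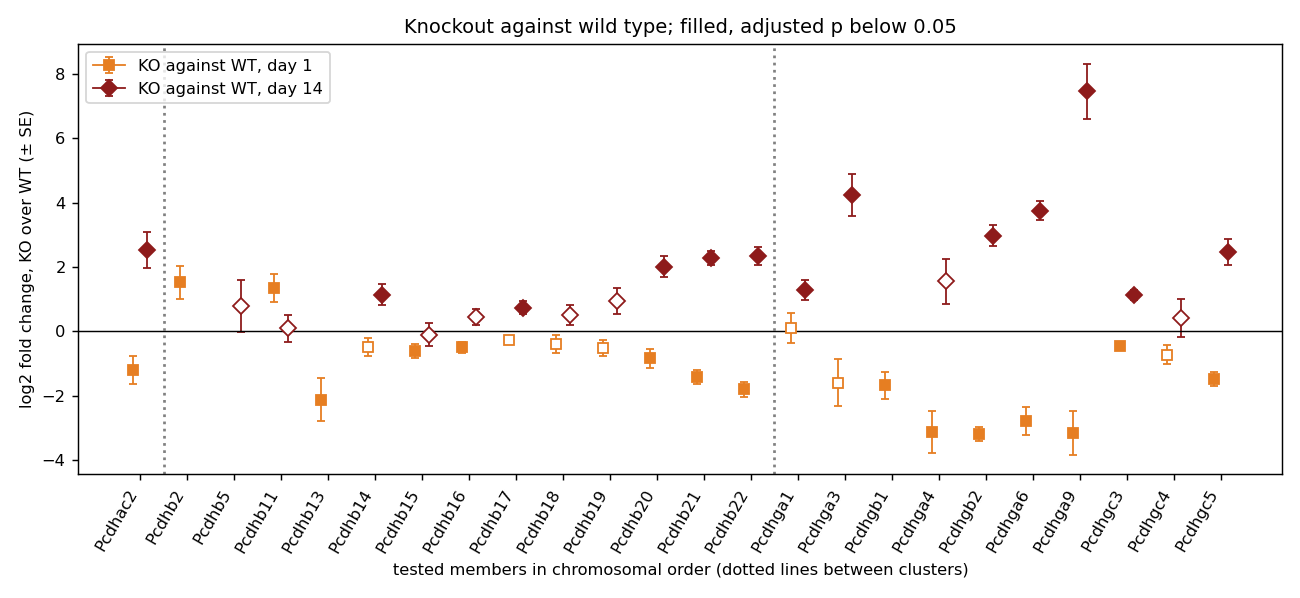
Log2 fold change of KO over WT (y axis, ± SE) for each tested member in chromosomal order, at day 1 (squares) and day 14 (diamonds), filled where the adjusted p is below 0.05. Most squares lie below 0 and most diamonds above it, with Pcdhb2 and Pcdhb11 as called rises at day 1; the diamond of Pcdhga9 at 7.46 rests on a WT group with 0 counts and depends on the fitted prior count.

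The C-type gamma isoforms carried most gamma reads, and 2 of the 3 fell at day 1 and rose at day 14. Pcdhgc3 stood at 29.6, 35.2 and 36.8 CPM in WT and 26.9, 25.9 and 21.2 in KO at day 1, and at 25, 34.2 and 37.3 in WT and 62.4, 74.7 and 74.8 in KO at day 14. The KO libraries were all below WT at day 1 and all above WT at day 14, with log2 fold changes of -0.45 ± 0.11 (adjusted p = 0.00307) and 1.12 ± 0.16 (adjusted p = 0.000449). Pcdhgc5, the last gene of the cluster, had 5.11, 5.69 and 6.06 CPM in WT and 2.33, 1.33 and 2.29 in KO at day 1, then 0.8, 1.81 and 3.56 in WT and 11.7, 11.6 and 11.3 in KO at day 14. Again the groups did not overlap on either day, and the changes were -1.49 ± 0.22 (adjusted p = 7.72e-05) and 2.46 ± 0.41 (adjusted p = 0.00119). Pcdhgc4, an isoform known to promote neuronal survival, passed the test on neither day: it averaged 1.82 ± 0.0345 CPM in WT and 1.08 ± 0.294 in KO at day 1 (adjusted p = 0.0522; 0.0308 without KO replicate 3), and 1.2 ± 1.06 and 1.66 ± 0.762 at day 14 (adjusted p = 0.611). Its day 14 log2 fold change of 0.40 went from -0.02 without KO replicate 2 to 1.42 without WT replicate 3, and was 0.06 and 0.05 without WT replicates 1 and 2 and 0.62 without KO replicate 1.

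Members of the gamma-A and gamma-B types, which lie upstream of the C-types, ranged widely in their KO effects. Pcdhgb2 stood at 6.75, 6.72 and 7.68 CPM in WT day 1 and at 0.943, 0.667 and 0.682 in KO day 1, then at 0.4, 0.906 and 0.593 in WT day 14 and 4.13, 4.87 and 5.71 in KO day 14. WT day 1 and KO day 14 were therefore high and the other two groups low, with no overlap between them; the KO effect was -3.19 ± 0.22 (adjusted p = 6.41e-08) at day 1 and 2.97 ± 0.33 (adjusted p = 0.000141) at day 14. For Pcdhga6 the levels were 1.68, 1.73 and 1.11 CPM in WT day 1, 0.166, 0.278 and 0.195 in KO day 1, 0.55, 0.697 and 0.346 in WT day 14 and 6.38, 7.76 and 7.22 in KO day 14. Its KO effects were -2.79 ± 0.44 (adjusted p = 0.000116) and 3.75 ± 0.29 (adjusted p = 1.82e-05), and KO day 14 was the highest group by a wide margin.

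Pcdhga9 had 77 counts in WT day 1, 6 in KO day 1, 0 in WT day 14 and 63 in KO day 14. It fell by 3.16 ± 0.67 on the log2 scale at day 1 (adjusted p = 0.00122; -5 to -2.54 when single libraries were left out, the extreme -5 without KO replicate 1), and at day 14 it was at least 23.3-fold higher in KO, taking 3 counts over the WT group as the floor. Pcdhga4 had 74, 6, 20 and 57 counts in the same order of groups: it fell at day 1 (-3.12 ± 0.65, adjusted p = 0.00102) and did not pass at day 14 (1.55 ± 0.71, adjusted p = 0.105), where 1 WT library at 0.976 CPM overlapped KO. Pcdhga3 had 50, 12, 3 and 57 counts. It missed the threshold at day 1 (-1.59 ± 0.74, adjusted p = 0.0817) and rose at day 14 (adjusted p = 0.00085), where the ratio of KO to WT levels was 21.1 with an exact 95% binomial interval of 6.86 to 105 for counting error alone. Pcdhga1, the first gamma gene, stood at 0.7 ± 0.142 CPM in WT day 1 and 0.763 ± 0.441 in KO day 1 and did not pass (0.11 ± 0.47, adjusted p = 0.852), but rose at day 14 from 0.862 ± 0.149 to 2.14 ± 0.101 (1.28 ± 0.30, adjusted p = 0.00717). Pcdhgb1 had its lowest level in KO day 14, with 76, 17, 35 and 9 counts: it fell at day 1 (-1.68 ± 0.43, adjusted p = 0.00448) and was not tested at day 14. Pcdhga7, which did not pass the filter, was also lowest in KO day 14, with 25, 20, 22 and 8 counts.

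**Figure D4:**
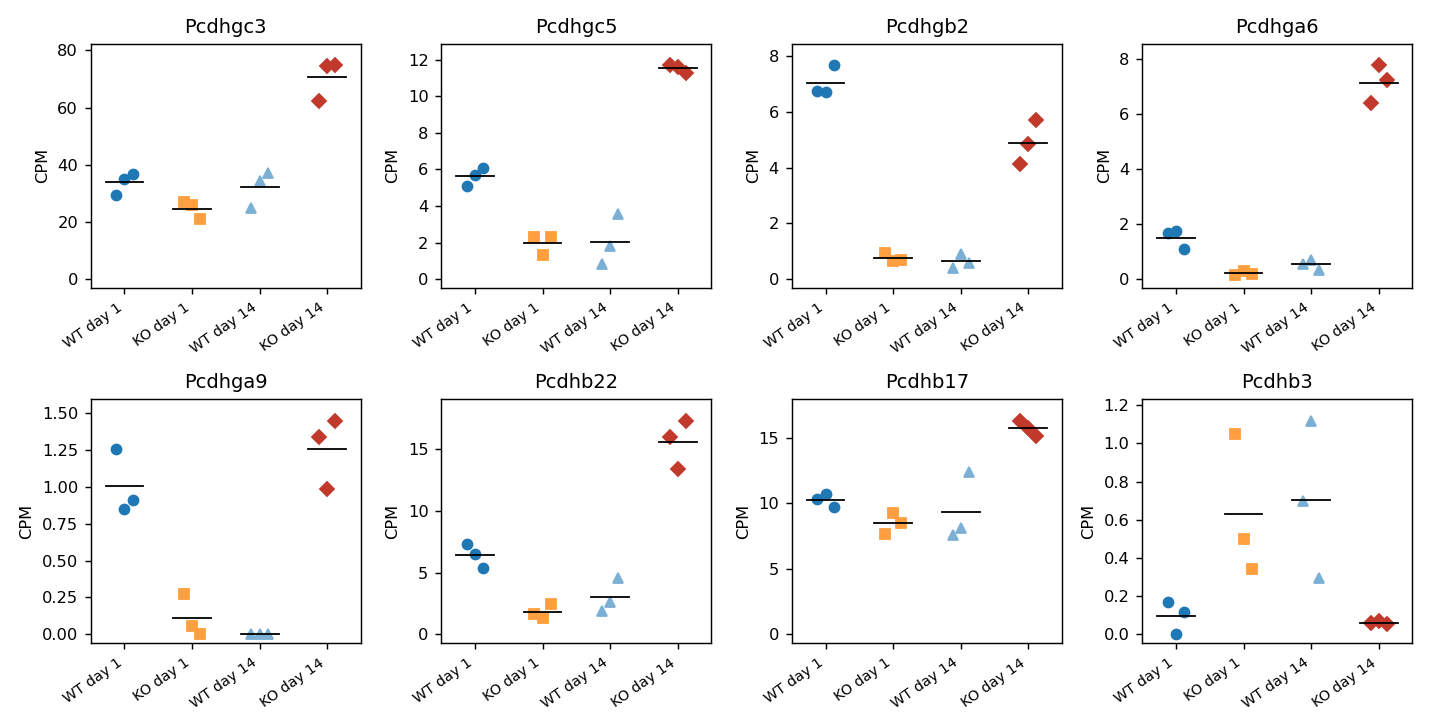
Level of 8 single members (y axis, CPM, linear, a scale for each panel) in the 12 libraries by group, with a line at the mean of each group. Pcdhgb2, Pcdhga6, Pcdhga9, Pcdhgc5 and Pcdhb22 are high in WT day 1 and KO day 14 and low in KO day 1 and WT day 14, and Pcdhb3 shows the opposite order at under 1.2 CPM.

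The makeup of the gamma cluster differed with the groups as well. Gamma-A and gamma-B genes together took 26.7% ± 3.06 of gamma counts in WT day 1, 10.2% ± 0.587 in KO day 1, 11.4% ± 3.46 in WT day 14 and 18.7% ± 0.759 in KO day 14, and the C-types took the rest. Pcdhgc3 was the most counted gamma gene in all 12 libraries, with 56.6% to 83.5% of the cluster. No KO day 1 library overlapped WT day 1 in the gamma-A and gamma-B share (9.72% to 10.9% against 24.6% to 30.2%). These shares are a description, with no test.

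Within the beta cluster the members differed by position, and the split into 3 blocks used here was made after the values were seen. The last 3 genes were the beta members called on both days. Pcdhb22 stood at 7.29, 6.5 and 5.39 CPM in WT and 1.66, 1.33 and 2.43 in KO at day 1, and at 1.9, 2.65 and 4.55 in WT and 16, 13.4 and 17.3 in KO at day 14. Neither day had an overlap, and the log2 fold changes were -1.80 ± 0.23 (adjusted p = 2.15e-05) and 2.34 ± 0.29 (adjusted p = 0.000262). Its neighbour Pcdhb21 had 5.91, 5.09 and 4.4 CPM in WT and 1.94, 2.39 and 1.41 in KO at day 1, then 1.8, 2.86 and 3.02 in WT and 13.6, 11.8 and 12.4 in KO at day 14. Its changes were -1.42 ± 0.23 (adjusted p = 0.000153) and 2.29 ± 0.22 (adjusted p = 6.48e-05), again without overlap. Pcdhb20 fell at day 1 from 2.42 ± 0.628 to 1.35 ± 0.179 CPM (-0.84 ± 0.29, adjusted p = 0.0225), a call lost without WT replicate 2 (adjusted p = 0.0536) or WT replicate 3 (adjusted p = 0.132), and rose at day 14 from 1.67 ± 0.797 to 6.68 ± 0.509 (2.01 ± 0.33, adjusted p = 0.00124).

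Pcdhb16 and Pcdhb17, the most counted beta genes in all groups but KO day 14, had smaller log2 fold changes than Pcdhb20 to Pcdhb22. Pcdhb17 stood at 10.3, 10.7 and 9.71 CPM in WT and 7.65, 9.22 and 8.52 in KO at day 1, and at 7.55, 8.09 and 12.4 in WT and 16.3, 15.7 and 15.1 in KO at day 14. KO lay below WT at day 1 without passing the test (-0.27 ± 0.13, adjusted p = 0.0829; 0.0381 without KO replicate 2), and above it at day 14 (0.73 ± 0.20, adjusted p = 0.0154), a call lost without WT replicate 2 (0.0526), KO replicate 1 (0.0587) or KO replicate 2 (0.0524). Pcdhb16 averaged 9.08 ± 0.395 and 6.41 ± 1.51 CPM in WT and KO at day 1 and 9.59 ± 3.2 and 13.2 ± 0.857 at day 14. It fell at day 1 (-0.49 ± 0.17, adjusted p = 0.0222), though not without WT replicate 1 (0.0662), WT replicate 2 (0.0631) or KO replicate 2 (-0.31, adjusted p = 0.0575), nor under scaling by library size alone (0.0695) or in the joint fit (0.0686). At day 14 it did not pass (0.45 ± 0.24, adjusted p = 0.151), with 0.2 without WT replicate 1 and 0.68 without WT replicate 2 (adjusted p = 0.046).

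In the first block of the beta cluster, Pcdhb2 to Pcdhb13, some genes went the other way. At day 1, Pcdhb2, Pcdhb11 and Pcdhb13 were its only members past the filter. Pcdhb2 rose at day 1, from 0.293, 0.141 and 0.198 CPM in WT to 0.776, 0.556 and 0.487 in KO (1.52 ± 0.50, adjusted p = 0.0184), and Pcdhb11 from 0.545, 0.212 and 0.594 to 1.22, 0.889 and 1.27 (1.34 ± 0.44, adjusted p = 0.0171). In both, KO lay above WT without overlap, but the calls were not stable. That of Pcdhb2 was lost without WT replicate 2 (0.0983), WT replicate 3 (0.0738) or KO replicate 1 (0.0815) and in DESeq2 (0.0533) or with no filter (0.0828), and that of Pcdhb11 without WT replicate 2 (0.0961) or KO replicate 1 (0.0544). Pcdhb13, in the same stretch, fell from 0.587, 0.742 and 0.555 CPM to 0, 0.111 and 0.292 (-2.12 ± 0.66, adjusted p = 0.0139; 0.0593 without WT replicate 2), a change that reached -3.37 without KO replicate 3. Pcdhb3 had 7 counts in WT day 1, 35 in KO day 1, 36 in WT day 14 and 3 in KO day 14, with no overlap between genotypes on either day. It passed the filter only in the joint fit of all 12 libraries, where the KO effect changed between days by -6.05 ± 1.19 (adjusted p = 0.000449).

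**Figure D5:**
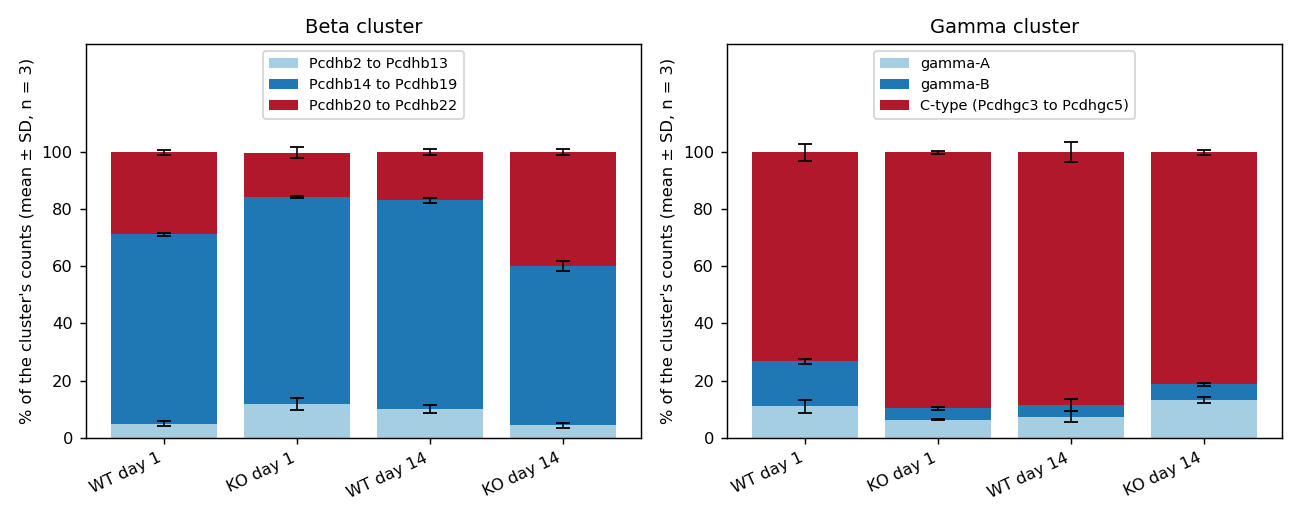
Share of the counts of the beta cluster (left) and gamma cluster (right) by position or type (y axis, percent, mean of 3 libraries ± SD at the top of each block) in the 4 groups. The Pcdhb20 to Pcdhb22 block takes 28.8% in WT day 1 and 39.9% in KO day 14, against 15.6% in KO day 1 and 16.9% in WT day 14.

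By share of beta counts, Pcdhb20 to Pcdhb22 took 28.8% ± 0.968 in WT day 1, 15.6% ± 1.81 in KO day 1, 16.9% ± 1.09 in WT day 14 and 39.9% ± 1.03 in KO day 14. Pcdhb2 to Pcdhb13 took 4.83% ± 0.943, 11.7% ± 2.09, 10.1% ± 1.35 and 4.3% ± 0.852, in the same order of groups. In absolute terms that first block changed less, at 2.33 ± 0.381, 3.9 ± 1.14, 4.36 ± 1.62 and 3.78 ± 0.965 CPM. The blocks were drawn from these values, so their shares are a description.

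Of the alpha cluster, Pcdhac2, a C-type isoform, was the only member past the filter. It stood at 2.05, 1.52 and 1.19 CPM in WT and 0.388, 1.22 and 0.438 in KO at day 1, and at 0.55, 0.0697 and 0.148 in WT and 1.76, 1.69 and 1.35 in KO at day 14. At day 1 the KO library at 1.22 overlapped WT, and the fall of 1.21 ± 0.44 on the log2 scale (adjusted p = 0.0302) was lost without WT replicate 1 (0.133), WT replicate 2 (0.0714), KO replicate 1 (0.11) or KO replicate 3 (0.0849), and in the joint fit (0.0528). Without KO replicate 2 it was -1.91 (adjusted p = 0.00112). At day 14 it rose without overlap (2.52 ± 0.56, adjusted p = 0.0056). Pcdhac1, the other alpha C-type, had 2 counts in WT day 1 and 0 in KO day 1. Among the remaining alpha genes, Pcdha1 had 22 counts in WT day 1 and 2 in KO day 1, a ratio of 8.04 (exact 95% interval 1.98 to 70.5), and 2 and 1 at day 14. Pcdha9 had 4, 4, 5 and 5 counts in the 4 groups and Pcdha11 had 0, 1, 6 and 8, too few for a comparison.

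Some members that the filter removed were at 0 in a group. In KO day 1, Pcdhga8 and Pcdhb12 had no count, against 18 and 11 in WT day 1, so that they were at least 4.39-fold and at least 2.68-fold lower. Pcdha3 was likewise at 0 against 17 counts, at least 4.14-fold lower. These genes were picked after their values were seen. Pcdhb12 had 4 counts in WT day 14 and 18 in KO day 14.

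The KO effect itself differed between the days for most tested members. In the joint fit of 12 libraries, 17 of 24 members passed the test of the change of the KO effect, against 60.1% of 15975 genes: 15 had a more positive effect at day 14 and 2 a more negative one, against 29.5% and 30.6% of genes. Pcdhga6 changed by 6.55 ± 0.48 (adjusted p = 1.48e-08) and Pcdhgb2 by 6.19 ± 0.38 (adjusted p = 2.36e-09) on the log2 scale. Pcdhgc3, the most abundant, changed by 1.59 ± 0.20 (adjusted p = 7.45e-06). The negative calls were that of Pcdhb3, given above, and Pcdhb2 (-2.42 ± 0.85, adjusted p = 0.0221), which was lost without WT day 1 replicate 2 (0.0629), KO day 1 replicate 1 (0.0553), WT day 14 replicate 3 (0.105) or KO day 14 replicate 3 (0.0642).

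Between the days, more tested members fell than rose in WT, and more rose than fell in KO. The comparisons below share libraries with those above, so each is given by its own values. In WT, 8 of 24 tested members were lower at day 14 and 2 higher, against 51.9% of genes called (26.1% lower, 25.8% higher). Pcdhgb2 fell by 3.51 ± 0.27 on the log2 scale (adjusted p = 5.72e-08), Pcdhac2 by 2.53 ± 0.57 (adjusted p = 0.00178) and Pcdhga6 by 1.53 ± 0.32 (adjusted p = 0.00104), while Pcdhga9 was at least 18.1-fold lower and Pcdhga3 lower by a ratio of 11.8 (3.8 to 58.9). Pcdhgc3 was not called (-0.08 ± 0.14, adjusted p = 0.679). The rises were Pcdhb3 (2.82 ± 0.77, adjusted p = 0.00636) and Pcdhb2 (1.65 ± 0.60, adjusted p = 0.0305), and the latter was lost without WT day 1 replicate 2 (0.119) or replicate 3 (0.0872) or WT day 14 replicate 3 (0.88, adjusted p = 0.28), with limma-voom (0.0576), with no filter (0.06) and with a replicate block (0.0509).

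In KO, 17 of 24 members were higher at day 14 and 1 lower, against 54.9% of genes called (26.9% higher, 27.9% lower). Pcdhga6 rose by 5.03 ± 0.35 (adjusted p = 1.35e-08), Pcdhb22 by 3.09 ± 0.28 (adjusted p = 3.04e-07), Pcdhb21 by 2.72 ± 0.23 (adjusted p = 1.21e-07) and Pcdhgc3 by 1.52 ± 0.15 (adjusted p = 4.83e-07). Pcdhga9 and Pcdhga4 rose by 3.49 ± 0.68 (adjusted p = 0.000731) and 3.38 ± 0.83 (adjusted p = 0.00285), the former by 5.29 without KO day 1 replicate 1. The lower member was Pcdhb3, by a ratio of 10.1 (exact 95% interval 3.2 to 51.6 for counting error).

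Between KO day 1 and WT day 14, no clustered protocadherin passed the test. The edgeR test called 0 of 24 members, against 9.78% of 15975 genes (3.89% higher, 5.89% lower); 5 members had an unadjusted p under 0.05, and DESeq2 and limma-voom also called 0. WT day 14 replicate 1 bears on this: without it, 6 of 27 members passed and 33.7% of all genes. The member higher in KO day 1 was then Pcdhac2 (2.5 ± 0.75, adjusted p = 0.0146), and the 5 lower ones, named after their values were seen, were Pcdhb15, Pcdhb16, Pcdhb18, Pcdhb22 and Pcdhgc3, with log2 changes of -1 to -0.53. With all libraries, the differences of Pcdhgc3 (-0.38 ± 0.15) and Pcdhgb2 (0.31 ± 0.34) had adjusted p-values of 0.111 and 0.583, which does not show that the groups were alike.

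KO day 14 stood above WT day 1 for 12 of 24 members and below it for 1, against 50.7% of genes called (24.6% higher, 26.1% lower). Pcdhga6 was higher by 2.23 ± 0.26 (adjusted p = 4.89e-06), Pcdhga1 by 1.61 ± 0.40 (adjusted p = 0.00343), Pcdhb20 by 1.46 ± 0.28 (adjusted p = 0.000575), Pcdhb21 by 1.29 ± 0.20 (adjusted p = 9.51e-05) and Pcdhgc3 by 1.06 ± 0.14 (adjusted p = 2.04e-05). Pcdhb5 was higher by 3 ± 0.90 (adjusted p = 0.0117), with 5 and 28 counts, but not without WT day 1 replicate 2 (0.0577) or replicate 3 (0.0523). The lower member was Pcdhgb1 (-2.38 ± 0.65, adjusted p = 0.00663). Pcdhac2 averaged 1.59 ± 0.436 CPM in WT day 1 and 1.6 ± 0.223 in KO day 14. Across the 24 members, the median r between libraries was 0.91 for KO day 1 with WT day 14 and 0.897 for WT day 1 with KO day 14, and 0.714 to 0.749 for the other pairs of groups; these values share libraries and are across genes.

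Other protocadherins, which lie outside the clusters, moved the same way in part. Of 12 listed genes, 7 were tested at day 1 (1 higher, 5 lower) and 6 at day 14 (3 higher, 1 lower), against 60.8% and 46.4% of all genes called on the same days. Pcdh19, which forms adhesion complexes with N-cadherin, stood at 148, 156 and 140 CPM in WT and 34, 38.6 and 29.7 in KO at day 1, then at 34.1, 20.4 and 20.1 in WT and 194, 220 and 209 in KO at day 14. It fell by 2.11 ± 0.09 (adjusted p = 4.14e-10) and rose by 3.05 ± 0.20 (adjusted p = 7.32e-06), with the same high and low groups as Pcdhgb2. Pcdh7 rose at day 14 by 1.60 ± 0.10 (adjusted p = 6.62e-06) and Pcdh17 fell at day 1 by 2.32 ± 0.45 (adjusted p = 0.000618). Pcdh9 had the opposite signs (0.57 ± 0.20, adjusted p = 0.0276, and -0.88 ± 0.27, adjusted p = 0.0233). Its day 1 call was lost without WT replicate 2 (0.0539), WT replicate 3 (0.124) or KO replicate 2 (0.0912), and its day 14 call without WT replicate 2 (0.0583) or any of KO replicates 1, 2 and 3 (0.0662, 0.0878 and 0.0643).

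Of 25 genes for regulators of protocadherin promoters and chromatin, all were tested; 6 rose and 12 fell at day 1, and 9 rose and 3 fell at day 14. The share called was 72% at day 1, against 60.8% of all genes, and 48% at day 14, near the 46.4% of all genes. Dnmt1, the maintenance DNA methyltransferase, fell from 180 ± 4.81 to 89.4 ± 12.3 CPM at day 1 (-1 ± 0.08, adjusted p = 3.89e-07) and rose from 115 ± 2.97 to 239 ± 15.2 CPM at day 14 (1.04 ± 0.08, adjusted p = 2.11e-05). Uhrf1, which brings Dnmt1 to hemimethylated DNA, rose at day 14 (1.82 ± 0.20, adjusted p = 0.000127), and Tet2, which oxidises methylcytosine, fell at day 1 (-1.02 ± 0.07, adjusted p = 2.86e-08). Rest, a repressor of neuronal genes, rose at day 1 (0.61 ± 0.06, adjusted p = 2.01e-06) and fell at day 14 (-0.41 ± 0.10, adjusted p = 0.00701), and Ezh2, a histone methyltransferase, rose at day 1 (0.26 ± 0.07, adjusted p = 0.00468; 0.187 in the joint fit). Dnmt3b fell at day 14 (-0.61 ± 0.21, adjusted p = 0.0421), but not without WT replicate 2 (0.0786), WT replicate 3 (0.0575), KO replicate 1 (0.15) or KO replicate 2 (0.147), nor with a replicate block (0.0651).

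Genes of signalling and processing partners were mixed: of 20 listed and 18 tested, 6 rose and 8 fell at day 1, and 8 rose and 3 fell at day 14. The share called was 77.8% and 61.1%, against 60.8% and 46.4% of all genes. Adam10, the protease that sheds the ectodomain of protocadherins, fell at day 1 from 235 ± 4.83 to 107 ± 5.62 CPM (-1.13 ± 0.06, adjusted p = 3.21e-09), as did Ptk2b, a kinase that protocadherin cytoplasmic tails bind (-1.15 ± 0.08, adjusted p = 3.78e-08). Cyfip2, a subunit of the WAVE actin regulatory complex, rose on both days (3.33 ± 0.33, adjusted p = 1.77e-06, and 2.90 ± 0.14, adjusted p = 1.58e-06). Rac1, the GTPase that acts on that complex, rose at day 1 (0.46 ± 0.07, adjusted p = 5.16e-05). At day 14 its subunit Abi2 rose (0.93 ± 0.09, adjusted p = 6.74e-05), its subunit Brk1 fell (-0.43 ± 0.09, adjusted p = 0.00321) and the kinase Fyn fell (-0.42 ± 0.11, adjusted p = 0.0138; 0.0623 without KO replicate 2).

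Markers of neurons, the cells in which this family is best known, differed among themselves. The summed level of 8 neuron markers was 264 to 274 CPM in WT day 1, 24.1 to 28.9 in KO day 1, 21.8 to 24 in WT day 14 and 84 to 88.4 in KO day 14. Most of it was Stmn2, at 230, 12.2, 9.18 and 70.7 CPM on average. Of the tested markers, 3 of 4 fell at day 1 (30.2% of all genes were called lower), and 2 of 5 rose and 1 fell at day 14 (22.7% and 23.7% of all genes). Snap25 averaged 0.586, 0.236, 0.295 and 0.979 CPM in WT day 1, KO day 1, WT day 14 and KO day 14, Nefl 30.3, 8.6, 5.83 and 9.08, and Syt1 2.2, 1.55, 2 and 0.487. Stmn2 and Snap25 thus had higher means in WT day 1 and KO day 14 than in KO day 1 and WT day 14. Nefl was high in WT day 1 and Syt1 was lowest in KO day 14. Tubb3 averaged 6.41, 3.86, 5.32 and 4.14 CPM in the same order of groups, with a lower mean in KO day 14 than in WT day 14. Between KO day 14 and WT day 1, 4 of 5 tested neuron markers were lower and 0 higher, against 26.1% and 24.6% of all genes. The defining markers Rbfox3, Elavl4 and Syp averaged at most 0.161 CPM in any group, with Rbfox3 at 0 in KO on both days and Elavl4 at 0 in WT day 1 and KO day 14. The summed fibroblast list was 174 to 182 CPM in WT day 1 and 78.4 to 116 in the other groups. Of its tested genes 4 of 4 fell at day 1, and 1 of 3 rose and 2 fell at day 14. The one that rose was Pdgfra, at 44.5, 25.6, 33.3 and 75.7 CPM in the 4 groups, and Dpt averaged 0.608, 0, 0.0167 and 1.07 CPM. Cd34, at 82.8, 44.9, 39.2 and 7.52 CPM, and Dcn, at 47.2, 28.4, 23.3 and 8.47 CPM, were lowest in KO day 14. Schwann cell markers summed to 12.7 to 14.6, 16.6 to 18, 15 to 21.2 and 5.06 to 6.93 CPM, endothelial markers to 13.6 to 16.1, 4.61 to 6.49, 7.85 to 10.2 and 6.99 to 8.25, and macrophage markers to 19.3 to 25.7, 43.5 to 56, 41.4 to 71.7 and 31.2 to 35, in the order WT day 1, KO day 1, WT day 14, KO day 14. The largest part of the Schwann cell sum was Erbb3, at 10.7, 9.97, 13.3 and 2.82 CPM on average. For endothelial markers it was Cdh5 (14.1, 3.7, 6.02 and 6.59), and for macrophage markers Cd68 (21.9, 48.6, 57.8 and 30.7). Csf1r went another way than Cd68, at 0.423, 0.479, 1.07 and 2.79 CPM. Ngfr differed from Erbb3, at 0.965, 4.26, 3.2 and 1.52 CPM. Unlike Cdh5, Vwf (0.383, 0.9, 1.52 and 0.352 CPM) and Kdr (0.039, 0.511, 1.08 and 0.152 CPM) had their highest means in WT day 14. Sox10, Ptprc and Adgre1 averaged at most 0.477 CPM in any group, so these sums do not measure the amount of a cell type. The part of other cell types in the protocadherin levels was not tested.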

How the data were processed

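The authors deposited a table of raw counts for each day (28494 and 30866 lines, 1 per gene name) with a column per library. Genome build mm9 is named per the submitters' processing notes; for the aligner, the counting tool, the annotation and strandedness, each is not given in the sources used here. Lines that repeated a name with identical counts were kept once (43 and 53 removed, Pcdha11 among them), and the 2 names with differing lines were summed. KO against WT was tested within each table, and the other comparisons in a single fit of 12 libraries over 26730 shared names. The test was edgeR 4.0.16 quasi-likelihood in R 4.3.3, with TMM scaling, the filterByExpr filter and Benjamini-Hochberg adjustment over all genes tested; a call is an adjusted p below 0.05. Scripts were tested on simulated data. DESeq2 1.42.0, limma-voom 3.58.1, other scalings, other filters, a replicate block and leaving out each library were the alternatives.

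Levels are CPM of TMM-scaled totals of the joint fit, fold changes are log2, and a group at 0 is bounded by 3 counts over the group. The SE of an edgeR fold change was derived as its absolute value divided by the square root of the quasi-likelihood F. It was not estimated separately. Intervals are exact 95% binomial and cover counting error only. Biological coefficients of variation were 0.077 at day 1, 0.146 at day 14 and 0.117 jointly. Members and gene lists were chosen with earlier results of these data known. Named were the C-types, the 4 highest members per cluster, up to 5 called rises and falls per comparison, and up to 2 called genes per direction of each related list; others are named as such or to complete a block. Gene order, exon lengths and shared bases come from GENCODE M21, in which 98.2% and 98.1% of the tables' names were found; its build differs from mm9, so no coordinates are given. Sequences were not used here. No library repeated another of its group: chi-square values per gene between them ran from 2.89 to 49.9.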

Additional observations from a re-analysis of the deposited data

Results flagged for a closer look

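The effect of KO against WT differed between day 1 and day 14 for 17 of 24 members tested (edgeR, interaction of genotype and day, Benjamini-Hochberg adjusted over 15975 genes). Of all 15975 genes, 60.1% were called in the same test. In the gamma cluster the log2 difference, day 14 minus day 1, was 6.55 ± 0.48 for Pcdhga6, 6.19 ± 0.38 for Pcdhgb2, 5.87 ± 1.20 for Pcdhga3, 4.69 ± 1.07 for Pcdhga4, 3.97 ± 0.48 for Pcdhgc5 and 1.59 ± 0.20 for Pcdhgc3. That of Pcdhga9 was fitted at 10.81 ± 1.32, a value that depends on the prior count because WT day 14 had 0 counts. The alpha member Pcdhac2 differed by 3.75 ± 0.77.

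In the beta cluster the difference was 4.15 ± 0.39 for Pcdhb22, 3.73 ± 0.32 for Pcdhb21, 2.87 ± 0.44 for Pcdhb20, 1.65 ± 0.47 for Pcdhb14, 1.48 ± 0.49 for Pcdhb19, 1.02 ± 0.24 for Pcdhb17 and 0.97 ± 0.31 for Pcdhb16. It was negative for Pcdhb2 at -2.42 ± 0.85 and for Pcdhb3 at -6.05 ± 1.19. Adjusted p-values ran from 2.36e-09 for Pcdhgb2 to 0.0221 for Pcdhb2.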

How the results depend on the processing

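Under the other scalings, tools, filters and fits that were run, counts of called members stayed within 1.5 times the reported count in all 7 comparisons. The members called were not all the same. A filter of 1 CPM in 3 libraries kept 10 of the 16 KO against WT calls at day 1 and 11 of the 13 at day 14. Lost were Pcdhb2, Pcdhb11, Pcdhb13, Pcdhga4, Pcdhga9 and Pcdhgb1 at day 1, and Pcdhga3 and Pcdhga9 at day 14. Leaving out single libraries gave 10 to 17 calls for KO against WT at day 1 (10 without WT replicate 2) and 12 to 14 at day 14. The range was 9 to 15 for WT between days, 16 to 20 for KO between days and 16 to 19 for the change of the KO effect. For KO day 1 against WT day 14 it was 0 to 6 (6 without WT day 14 replicate 1), and for KO day 14 against WT day 1 it was 10 to 17. The gamma sum of WT between days, -0.50, ranged from -0.63 to -0.33. Scaling by library size alone moved the median log2 fold change of all genes at day 1 from 0.01 to 0.13, and the gamma sum from -0.86 to -0.73. Summed changes moved when the most counted gene was left out: without Pcdhac2, the alpha sum went from -1.49 to -2.16 for KO against WT at day 1, from 1.73 to 0.06 at day 14 and from -2.07 to -1.42 for WT between days. Both values for WT between days count at day 1 the alpha names that have no line at day 14. Over the 9 alpha names of both tables, Pcdhac2 included, the sum changed by -1.85 in WT between days. Without Pcdhgc3, the gamma sum went from -0.86 to -1.84 at day 1, from 1.37 to 2.06 at day 14, from -0.50 to -1.53 for WT between days and from 1.74 to 2.38 for KO. Leaving out libraries gave 1.46 to 2.35 for the alpha sum at day 14. The beta sum of WT between days, -0.17, ranged from -0.32 to 0.07 and turned positive without WT day 14 replicate 1; Pcdhgc4 at day 14 turned from 0.40 to -0.02 without KO replicate 2 and reached 1.42 without WT replicate 3. Libraries share only a replicate number: deviations from group means of same-numbered libraries correlated at -0.0701 to 0.103 (18 pairs). In the order KO against WT at day 1 and day 14, change of the KO effect, WT and KO between days, KO day 1 against WT day 14, and KO day 14 against WT day 1, a replicate block gave 16, 13, 17, 10, 17, 0 and 12 called members, against 16, 13, 17, 10, 18, 0 and 13 without it. Depth limits the other members: those with at least 30 counts over a group numbered 22 in WT day 1, 18 in KO day 1, 19 in WT day 14 and 20 in KO day 14.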

Other observations

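Genes that flank the clusters or lie among them were tested from a list of 12, of which 11 passed the filter. At day 1, 2 were higher in KO and 3 lower, and at day 14, 6 were higher and 0 lower. The share called was 45.5% at day 1, below the 60.8% of all genes, and 54.5% at day 14, against 46.4%. Arap3, a GTPase-activating protein gene downstream of the gamma cluster, stood at 12.5, 11.7 and 11.7 CPM in WT and 2.72, 3.28 and 2.14 in KO at day 1, then at 5.35, 5.65 and 2.97 in WT and 7.96, 10.2 and 9 in KO at day 14. It fell by 2.14 ± 0.16 on the log2 scale (adjusted p = 1.53e-07) and rose by 0.95 ± 0.25 (adjusted p = 0.0139; 0.0625 without KO replicate 2). Hdac3, a histone deacetylase gene, fell at day 1 (-0.60 ± 0.07, adjusted p = 8.62e-06).

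Upstream of the alpha cluster, Hars2, a mitochondrial histidyl-tRNA synthetase gene, rose at day 14 from 28.2 to 51 CPM (0.84 ± 0.11, adjusted p = 0.000326). Wdr55 rose at day 1 (0.42 ± 0.14, adjusted p = 0.0168), though not without WT replicate 1 (0.0603) or WT replicate 2 (0.0594). Taf7, a subunit gene of the transcription factor TFIID that lies between the beta and gamma clusters, rose at day 1 from 3.2 to 5.51 CPM (0.79 ± 0.18, adjusted p = 0.00232).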
